A study of Saccharomyces cerevisiae with 2 samples.

Results

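The genes described here encode 10 transcription factors of the budding yeast Saccharomyces cerevisiae that switch on genes for growth without a fermentable sugar: CAT8, SIP4, ADR1, HAP2, HAP3, HAP4, HAP5, PIP2, OAF1 and RDS2. They were chosen by name, with earlier results of these data known, and all 10 had a ratio, among 5598 named genes with one. Yeast given 3% pyruvate was compared with yeast given 2% glucose, and RNA of both was hybridised together on each of 2 arrays of 2 colours. Array 1 held glucose RNA in Cy5 and pyruvate RNA in Cy3, and array 2 held them the other way round. The labels give these carbon sources and dyes; the strain, its genotype and how and when cells were grown and collected are not stated in the sources used here.

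In yeast, glucose represses the genes for respiration, gluconeogenesis and fat breakdown. When glucose runs out, the kinase Snf1 becomes active and the repressor Mig1 leaves the nucleus. Cat8 and Sip4, activators of the zinc cluster family, then act through the carbon source response elements of gluconeogenic and glyoxylate cycle genes, and Rds2, of the same family, acts on part of these. Adr1, a zinc finger activator, serves genes for ethanol, glycerol and fatty acid use. Oaf1 and Pip2 form a pair that binds oleate response elements of peroxisomal genes. Hap2, Hap3 and Hap5 together bind CCAAT boxes of respiratory genes, and Hap4 joins them to supply the activating domain.

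The values were read as log2 ratios of pyruvate over glucose, and each gene value is the mean over its features, which are the probe spots assigned to it. That direction is likely and not stated: it takes the deposited ratio as Cy5 over Cy3, the usual order and that of the labels, and with the other order every sign below would turn. No label tells separate cultures from repeated use of one pair of extracts. The p-values therefore test each mean ratio against 0 by a spread between arrays that may be technical only. Having 2 arrays limits the precision of every value. A ratio gives no transcript level, so the genes cannot be ordered by abundance. The median gene stood at 0.18 on array 1 and 0.02 on array 2. It was 0.10 for the mean of the arrays, and the changes below are lower by that amount relative to the median gene. A gene passed the test where limma, fitted on all named genes, gave an adjusted p under 0.05.

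Of the 10 activator genes, 8 rose in pyruvate, 0 fell and 2, SIP4 and OAF1, did not pass. Over all named genes limma called 44.3%, with 27.1% higher and 17.2% lower. The excess of higher calls, 1519 against 963, was smaller with each array centred on its median, 1392 against 1261, where 9 of the 10 activators rose. All 10 lay above 0 on both arrays, as did 47.3% of named genes. Their median was 1.11 (2.16-fold), with extremes of 0.26 in OAF1 and 4.37 in CAT8. At an unadjusted p under 0.05 limma also gave 8 higher and 0 lower, and at least 2-fold on both arrays were 4 genes, CAT8, ADR1, HAP3 and HAP2, against 12.7% of named genes that were higher and 4.81% that were lower by this measure. The limma calls rest on a spread shared across genes: without moderation 0 of the 10 passed, although 5 were higher and 0 lower there at an unadjusted p under 0.05. The share of all named genes at an unadjusted p under 0.05 was not counted for either fit, so these unadjusted counts have no comparator here.

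**Figure D1:**
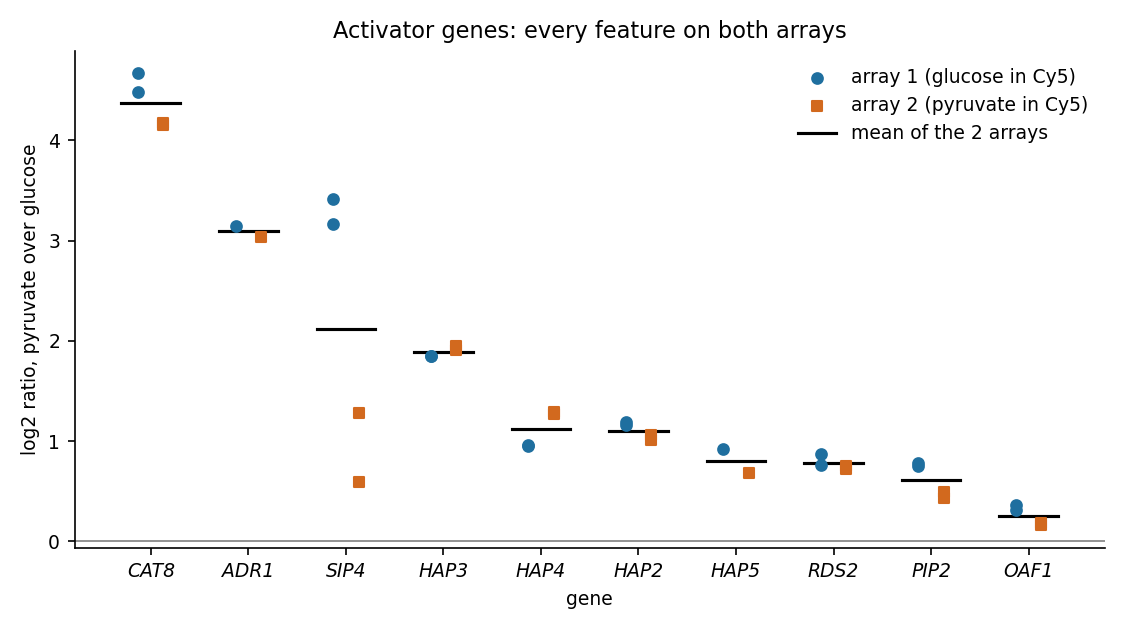
Log2 ratio of pyruvate over glucose (vertical axis) of every feature of the 10 activator genes (horizontal axis, in order of their mean), with array 1 as circles, array 2 as squares and the mean of both arrays as a bar. CAT8 and ADR1 have the highest bars, both circles of SIP4 lie above that of ADR1 (3.15), and the squares of SIP4 (0.59 and 1.28) lie far below its circles (3.17 and 3.42).

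CAT8 had the largest ratio of the group. It stood at 4.58 on array 1 and 4.17 on array 2, and its features, at 4.49 and 4.67 on array 1 and 4.16 and 4.18 on array 2, were all far above 0. The mean of 4.37 ± 0.29 (SD, n = 2) is a 20.7-fold increase, with a limma adjusted p of 0.0115 and a 95% interval of 3.86 to 4.89. By mean ratio CAT8 ranked 28 from the top among the 5598 named genes, or as far from the bottom with the other channel order.

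SIP4, whose own expression is known to depend on Cat8, was above 0 on both arrays but by very unequal amounts. It stood at 3.29 on array 1 and 0.94 on array 2, a mean of 2.11 ± 1.67 (SD, n = 2). It did not pass limma (adjusted p of 0.116, 95% interval of -0.36 to 4.59), so neither no change nor a large increase lies outside the interval. The arrays differed more than in 97.9% of named genes. Its features were apart as well: 3.42 and 3.17 on array 1, and 1.28 and 0.59 on array 2, where the gap of 0.69 exceeds that of 99.3% of the 3576 genes with 2 features. The value of 0.59 is, less a constant of 0.008 found on that array, log2 of a ratio of small whole numbers. This is a possible mark of low signal: 784 features of array 2 lay at such ratios, against a median of 141 and a maximum of 494 at other offsets. Without the feature at 0.59 the SIP4 mean was 2.35, which again did not pass (limma adjusted p of 0.0552). Centred on the median gene of each array, SIP4 was at 2.01 and passed (limma adjusted p of 0.0141). The part of low signal or dye in the gap between arrays was not tested.

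RDS2 rose by less. Its ratios were 0.82 on array 1 and 0.74 on array 2, close to each other and on the same side of 0. The mean of 0.78 ± 0.06 (SD, n = 2) is a 1.71-fold increase, with a limma adjusted p of 0.0205. CAT8 exceeded RDS2 by 3.76 on array 1 and 3.43 on array 2, and SIP4 by 1.29 and 3.23.

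ADR1 had the second largest mean ratio, although SIP4 exceeded it on array 1, by 3.29 to 3.15. It is represented by 1 feature, which read 3.15 on array 1 and 3.03 on array 2. The mean of 3.09 ± 0.08 (SD, n = 2) is an 8.53-fold increase, with a limma adjusted p of 0.0115 and a 95% interval of 2.79 to 3.40. ADR1 ranked 90 from the top by mean ratio, or as far from the bottom with the other channel order. It lay below CAT8 by 1.43 on array 1 and 1.13 on array 2.

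**Figure D2:**
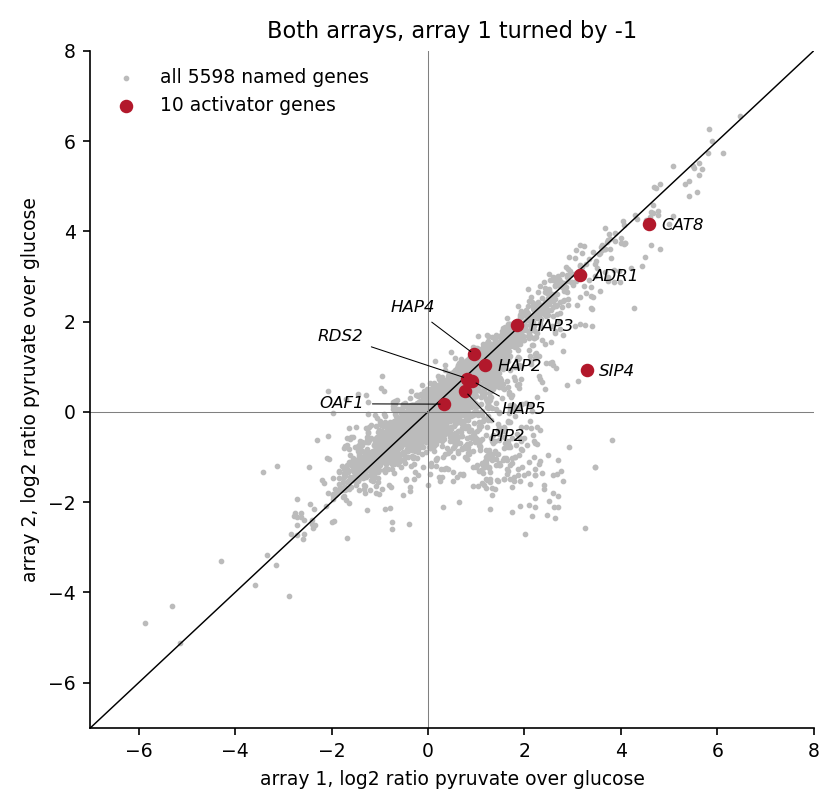
Log2 ratio of pyruvate over glucose of each named gene (grey) and of the 10 activator genes (red) on array 1 (horizontal axis) and array 2 (vertical axis), with the line of equal values. Except for SIP4, at 3.29 and 0.94, the activators lie close to the line.

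All 4 genes of the CCAAT-binding complex rose, and the one with the largest ratio was HAP3, not the activating subunit HAP4. HAP3, a DNA-binding subunit with a histone fold, stood at 1.85 on array 1 and 1.93 on array 2, a mean of 1.89 ± 0.05 (SD, n = 2), or 3.71-fold (limma adjusted p of 0.0124). HAP4 stood at 0.96 on array 1 and 1.28 on array 2, a mean of 1.12 ± 0.23, or 2.17-fold (limma adjusted p of 0.0213). Its features nearly coincided on each array, at 0.96 and 0.95 on array 1 and 1.27 and 1.29 on array 2, so the features of HAP4 varied less than its arrays.

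HAP2, the subunit that makes specific contact with the CCAAT box, read 1.18 on array 1 and 1.03 on array 2, a mean of 1.11 ± 0.10 (SD, n = 2; 2.15-fold; limma adjusted p of 0.0156). HAP5, which pairs with Hap3, read 0.92 and 0.68 from 1 feature, a mean of 0.80 ± 0.17 (1.74-fold; limma adjusted p of 0.0265). HAP3 lay above the other three subunits on both arrays. It exceeded HAP4 by 0.90 on array 1 and 0.65 on array 2, HAP2 by 0.68 and 0.90, and HAP5 by 0.93 and 1.25. HAP4 and HAP2 could not be put in order, since HAP4 was lower by 0.22 on array 1 and higher by 0.24 on array 2.

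Of the oleate-responsive pair, PIP2 rose and OAF1 did not pass. PIP2, whose transcription is known to be induced through its own product and Oaf1, read 0.77 on array 1 and 0.46 on array 2. The mean of 0.61 ± 0.21 (SD, n = 2) is a 1.53-fold increase with a limma adjusted p of 0.0478, the nearest to the threshold among the genes called. From the feature of lower number alone PIP2 did not pass (limma adjusted p of 0.0589). OAF1, known to be made in glucose too and to bind the fatty acid, read 0.34 on array 1 and 0.17 on array 2, a mean of 0.26 ± 0.12 (limma adjusted p of 0.137, 95% interval of -0.08 to 0.59). One OAF1 feature, at 0.16 on array 2, lies at a whole-number ratio like the SIP4 feature above. Without that feature the OAF1 mean was 0.25, which again did not pass (limma adjusted p of 0.116). PIP2 lay above OAF1 by 0.43 on array 1 and 0.29 on array 2. Relative to the median gene OAF1 was at 0.15 and PIP2 at 0.51.

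By mean ratio the order was CAT8, ADR1, SIP4, HAP3, HAP4, HAP2, HAP5, RDS2, PIP2 and OAF1. Between neighbours, both arrays of the higher gene lay above both of the lower for CAT8 over ADR1, HAP3 over HAP4, HAP2 over HAP5 and PIP2 over OAF1. ADR1 and SIP4, SIP4 and HAP3, HAP4 and HAP2, HAP5 and RDS2, and RDS2 and PIP2 overlapped. With 2 arrays an exact sign permutation test of a difference between genes cannot go below a two-sided p of 0.5, so these differences are given as values. Features of one gene were mostly close: for genes with 2 features the median gap was 0.054 on array 1 and 0.051 on array 2, and apart from SIP4 the widest gap among the activators was that of CAT8 on array 1, 0.18.

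The median ratio of the known targets exceeded the ratio of each activator that acts on them. The lists were written from textbook knowledge, but with earlier results of these data known, so their counts are not independent of the data. They hold 47 different genes, of which 45 rose, 0 fell and 2 did not pass, and 7 stand in more than 1 list. Over all named genes, as above, the median was 0.10 and 27.1% rose. At an unadjusted p under 0.05 limma called 0 genes of any of these target lists lower. The share of all named genes at that threshold was not counted, so this 0 has no comparator here.

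All 9 targets of Cat8 and Sip4 rose, with a median of 5.10 and extremes of 1.93 in MDH2, the cytosolic malate dehydrogenase, and 5.78 ± 0.05 (SD, n = 2) in JEN1, the lactate and pyruvate permease, which read 5.81 on array 1 and 5.74 on array 2. FBP1, the fructose bisphosphatase of gluconeogenesis, read 5.69 and 5.37. CAT8, at 4.37, stood below this median. All 11 targets of Adr1 rose, with a median of 4.39. ADH2, the alcohol dehydrogenase that oxidises ethanol, read 5.84 on array 1 and 6.28 on array 2, and GUT1, the glycerol kinase, had the smallest mean at 1.39. ADR1, at 3.09, stood between these.

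Of 15 targets of Oaf1 and Pip2, 13 rose, 0 fell and 2 missed the threshold, at a median of 3.13, far above the 0.61 of PIP2 and 0.26 of OAF1. POX1, the acyl-CoA oxidase that opens peroxisomal beta-oxidation, read 5.57 on array 1 and 4.88 on array 2, and POT1, the thiolase that closes it, 5.33 and 5.05. The genes that did not pass were PXA2, a subunit of the peroxisomal fatty acid transporter (0.76 ± 0.31; limma adjusted p of 0.0507), and ANT1, the peroxisomal nucleotide transporter (0.37 ± 0.07; limma adjusted p of 0.0632). Of these 15 genes 6 are also in the list of Adr1, so the share of either regulator in their increase cannot be told apart here.

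All 19 targets of the CCAAT-binding complex rose, with a median of 3.04, above each of its 4 subunit genes. SDH1 (4.14 ± 0.12) and SDH4 (4.11 ± 0.05), subunits of succinate dehydrogenase, had the largest means. HEM1, for the first step of heme synthesis, had the smallest at 0.66 ± 0.14 and was the one target of this list under 2-fold, with 0.56 on array 1 and 0.76 on array 2.

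**Figure D3:**
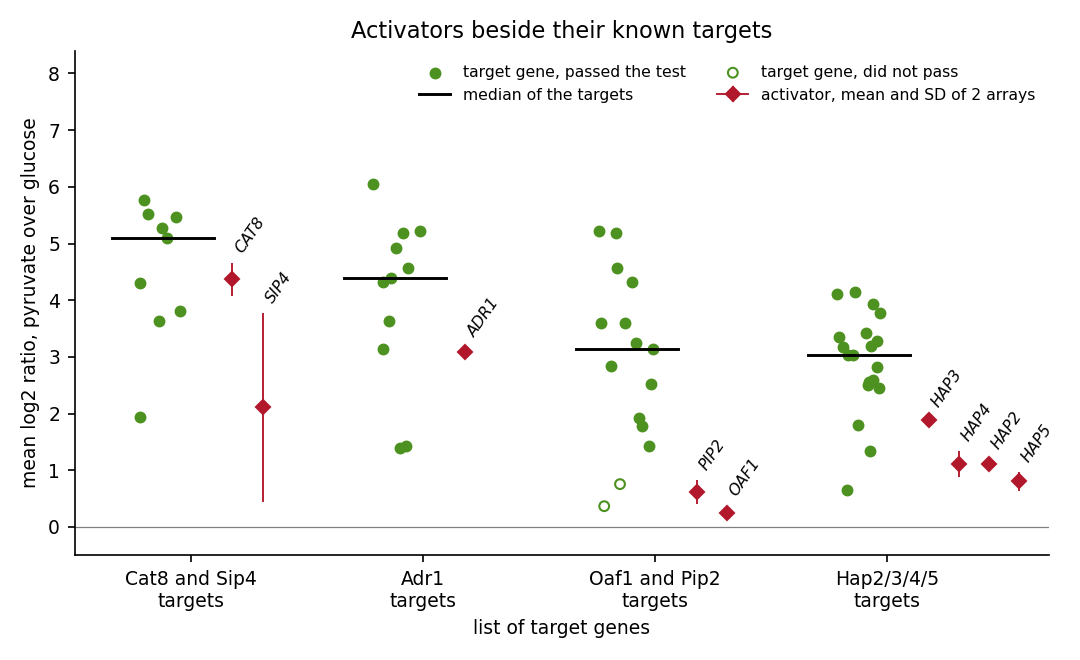
Mean log2 ratio of pyruvate over glucose (vertical axis) of the known targets of each activator group (circles, filled where limma called the gene) with their median (bar), beside the activator genes (diamonds, mean and SD of the 2 arrays). The medians of the targets, 5.10, 4.39, 3.13 and 3.04 from left to right, exceed every activator of the same column.

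Of 13 genes of the Snf1 kinase, its activating kinases, its phosphatase and the Mig repressors, 3 rose, 2 fell and the other 8 missed the threshold, at a median of 0.18. The shares, 23.1% higher and 15.4% lower, are near the 27.1% and 17.2% of all named genes. SNF1, the catalytic subunit, fell by 0.44 on the log2 scale (SD of 0.02, n = 2; limma adjusted p of 0.0424). Of the beta subunits, which direct the kinase to places in the cell, SIP2 rose by 1.58 ± 0.13 (1.48 on array 1 and 1.67 on array 2), while SIP1 (0.35 ± 0.14) and GAL83 (-0.36, with both arrays at -0.36) did not pass. SNF4, the gamma subunit, was at 0.32 ± 0.30 and did not pass.

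TOS3, one of the kinases that activate Snf1, fell by 1.52 on the log2 scale, with -1.59 on array 1 and -1.46 on array 2 (limma adjusted p of 0.0129). MIG1, the repressor that holds genes such as CAT8 off in glucose, rose by 1.13 ± 0.07 (SD, n = 2), with 1.19 on array 1 and 1.08 on array 2 (limma adjusted p of 0.0152). Its relatives MIG2 (-0.07 ± 0.18) and MIG3 (0.33 ± 0.02) did not pass. MIG1 therefore stood near HAP4 and HAP2 in mean ratio, and below CAT8, ADR1 and HAP3.

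**Figure D4:**
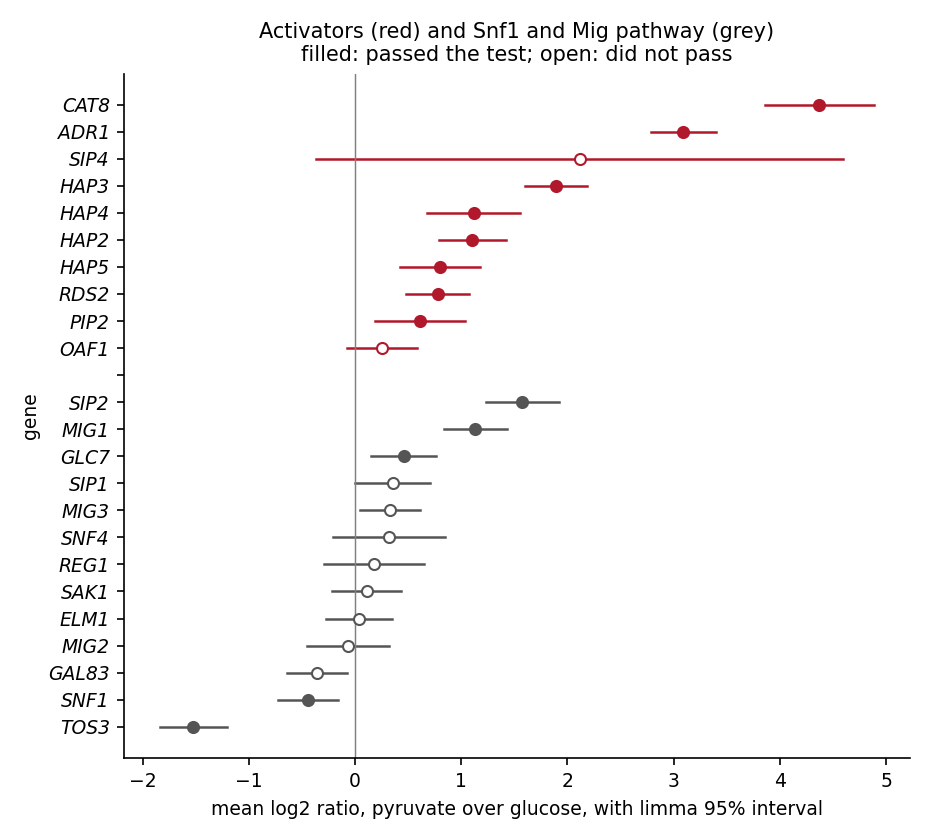
Mean log2 ratio of pyruvate over glucose with its limma 95% interval (horizontal axis) for the 10 activator genes (red) and 13 genes of the Snf1 and Mig pathway (grey), filled where the gene passed the test. The intervals of SIP4 (-0.36 to 4.59) and OAF1 (-0.08 to 0.59) include 0.

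Among 8 other regulators of respiration, gluconeogenesis and retrograde signalling, 3 rose, 1 fell and the other 4 missed the threshold, at a median of 0.10, as over all named genes to 2 decimals. The counts are 37.5% and 12.5% of this short list, against 27.1% and 17.2% of all named genes. GSM1, a zinc cluster relative of this group (2.38 ± 0.18), and USV1, a zinc finger regulator (2.22 ± 0.20), had the largest means, and HAP1, the heme-responsive activator of respiratory genes, fell by 0.46 on the log2 scale (SD of 0.05, n = 2). Of 36 further zinc cluster genes, 7 rose, 1 fell and the other 28 missed the threshold, at a median of 0.15. These are 19.4% and 2.78%, against 27.1% and 17.2% of all named genes, and with each array centred on its median 11 rose. Among the 5 zinc cluster activators described here 3 rose, CAT8, RDS2 and PIP2, and the difference between these shares was not tested. Among the 36 further genes the largest means were in MAL33, a maltose activator whose related copies may share its probes (2.91 ± 0.15), and EDS1 (2.36 ± 0.32). The gene that fell was TEA1, an activator of Ty1 enhancers, by 0.87 on the log2 scale.

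The genes with ratios nearest to those of CAT8, by Euclidean distance over the 2 arrays, were ADY2, the acetate transporter, at a distance of 0.11 (4.52 on array 1 and 4.26 on array 2), ATG39, a receptor for autophagy of the nucleus, at 0.16 (4.61 and 4.32), and YIG1 at 0.25 (4.66 and 4.41). Likeness over 2 arrays is a likeness of size only. ADY2 is also in the list of Adr1 targets.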

How the data were processed

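The authors' deposited table, the only file used, gives 10807 features of 2 arrays as log2 channel ratios, of which 10 and 6 are missing. How the authors scaled them or corrected background is not given in the sources at hand. Base 2 was inferred from features at log2 of ratios of whole numbers up to 10, to 3 decimals. On array 1 these were 935, against a median of 136 and a maximum of 350 at other offsets. On array 2, after subtracting 0.008, they were 784, against a median of 141 and a maximum of 494. The deposited columns correlated at -0.81 (Pearson) over features of named genes, 0.86 over unnamed features and 0.16 over all. Array 1 was multiplied by -1, following the labelled dyes, and the correlation over named genes was seen before this choice.

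The platform annotation names 1 gene for 9202 features, of which 9194 were matched to current names. Features were averaged per gene, and limma 3.58.1 in R 4.3.3 (lmFit and eBayes; 1 residual and 1.67 prior degrees of freedom) tested 5598 genes, with Benjamini-Hochberg adjustment. No dye term could be fitted. Steps were tested on simulated data. Tables and figures used matplotlib 3.10.9 and pandas 2.3.3 in Python 3.11.15.

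The activators and gene lists were chosen with earlier results of these data known. Besides the activators, the text names from each list the 2 genes of largest absolute mean among those of 1 direction, the largest opposite call, the Snf1 subunits, the MIG genes and the 3 genes nearest to CAT8. MDH2, GUT1, HEM1, PXA2 and ANT1 were named after their values were seen. Alternatives changed the centring, scaling, moderation, threshold, features and arrays used.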

Additional observations from a re-analysis of the deposited data

How the results depend on the processing

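The 10 activators kept their direction under all alternatives run, each array alone included. Changes of moderation, threshold or minimum fold leave each mean as it is, so the direction could not turn there. Nor could the choice of feature alter ADR1 and HAP5, with 1 feature each. The 8 activators that passed limma also passed with scaled arrays, robust moderation, dim features left out and the feature of highest number. Over all named genes these fits called 1561, 1523, 1636 of 5315 and 1524 higher, in that order. With each array centred on its median, 9 passed, SIP4 being added; the prior degrees of freedom of that fit were 5.28 against 1.67. With the feature of lowest number, 7 passed, without PIP2, and 1477 of all 5598 named genes were higher. Against a minimum change of 1.5-fold (limma treat), 3 activators (CAT8, ADR1 and HAP3) and 4 other zinc cluster genes were higher. Over all 5598 named genes, 573 were higher and 184 lower by that test. Without moderation, 0 activators passed, and so did 0 genes of each other list except 1 target of the CCAAT-binding complex; over all named genes that fit called 5 higher and 5 lower. At an adjusted p under 0.01, 0 activators and 0 genes of every list were higher, as were 0 of all 5598, since the smallest adjusted p among them was 0.0115. At an unadjusted p under 0.05 the usual fit gave 8 activators higher, and the share of all named genes at this threshold was not counted. At an adjusted p under 0.1, 5 genes of the Snf1 and Mig list and 12 other zinc cluster genes were higher, as were 1923 of all 5598. After centring, at an adjusted p under 0.05, 11 other zinc cluster genes were higher, as were 1392 of all 5598. From 1 array, 5 activators were at least 2-fold changed whichever array was left out, against 4 on both. The sets of 5 differed. Array 1 alone gave SIP4 (3.29) and not HAP4 (0.96), and array 2 alone gave HAP4 (1.28) and not SIP4 (0.94). The share of all named genes at least 2-fold changed on 1 array was not counted. No test is possible from 1 array, which leaves no residual degree of freedom. The comparison was paired by array, because each ratio sets both conditions of 1 array against each other. Apart from whole-number ratios, the deposited values carry no measure of signal over background by which dim or saturated spots could be found.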
